A study of Rattus norvegicus with 21 samples.

Results

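Transcripts of the mitochondrial respiratory chain were followed in rat liver across 5 doses of 2-ethylhexyl diphenyl phosphate (EHDP), an aryl alkyl phosphate ester that serves as plasticiser and flame retardant. The members were the genes whose symbol began with Nduf followed by a, b, c, s or v and a number, with Uqcr, with Cox and a number from 4 to 8, or with Atp5, and the 4 genes Sdha, Sdhb, Sdhc and Sdhd. They came to 79 of the 14218 genes measured: 35 of complex I, 4 of complex II, 7 of complex III, 17 of complex IV and 16 of complex V. The choice used symbols alone and no measured value. The liver came from male Harlan Sprague Dawley rats given EHDP in corn oil, or corn oil alone, by gavage once daily on 4 days, with tissue taken on day 5. The 6 groups were the vehicle with 6 arrays and EHDP at 61.2, 122.5, 244.6, 489.2 and 978.5 mg/kg with 3 arrays each. The treatment protocol counts 5 rats in the vehicle group, but 6 arrays are labelled with dose 0, and all of these entered the vehicle mean. The sample labels spell the compound EDHP, and no age is given. The labels speak of rats as the units of dosing but do not tie each array to a separate rat in so many words, so p-values measure the spread between these arrays.

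The respiratory chain passes electrons from NADH and succinate to oxygen in the inner mitochondrial membrane. Complex I takes them from NADH, complex II from succinate, complex III hands them from coenzyme Q to cytochrome c, and complex IV passes them to oxygen. Complexes I, III and IV pump protons, and complex V, the ATP synthase, lets protons flow back to make ATP. Liver is rich in mitochondria and depends on this chain for the energy of glucose and urea synthesis. Most subunits are encoded in the nucleus, and all members here are. NRF1, the ETS-family factor GABP, YY1 and SP1 are known regulators of many of these genes.

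The stretch of 250 bases before the start of 4 members is shown, taken from RefSeq on the GRCr8 build and written 5′ to 3′ on the strand of the gene. Atp5if1 and Ndufb7 are shown because they were the members that passed the test, Ndufs1 because it had the highest difference of complex I at 978.5 mg/kg, and Atp5me because its window holds the NRF1 core on both strands and was chosen after the matches were seen. They lie on the minus strand at chr5:150026678-150026927 (Atp5if1), chr19:41477292-41477541 (Ndufb7) and chr9:72073606-72073855 (Ndufs1), and on the plus strand at chr14:1464610-1464859 (Atp5me). Capitals mark matches on either strand to the NRF1 core GCATGCGC, the ETS site CCGGAAG, the YY1 core GATGGC, the CCAAT box CCAAT, the SP1 box GGGCGG or the antioxidant response element TGACNNNGC.

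Atp5if1: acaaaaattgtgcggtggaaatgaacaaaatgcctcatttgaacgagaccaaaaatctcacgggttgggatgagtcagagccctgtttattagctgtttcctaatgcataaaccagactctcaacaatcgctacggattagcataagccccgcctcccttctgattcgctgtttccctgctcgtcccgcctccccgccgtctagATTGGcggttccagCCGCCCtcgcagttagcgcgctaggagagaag
Ndufb7: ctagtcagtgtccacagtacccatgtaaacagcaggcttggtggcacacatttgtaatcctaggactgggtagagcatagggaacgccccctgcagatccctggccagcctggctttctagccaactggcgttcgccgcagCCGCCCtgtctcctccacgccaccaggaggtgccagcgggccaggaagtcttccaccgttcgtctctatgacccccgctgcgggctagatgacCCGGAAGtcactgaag
Ndufs1: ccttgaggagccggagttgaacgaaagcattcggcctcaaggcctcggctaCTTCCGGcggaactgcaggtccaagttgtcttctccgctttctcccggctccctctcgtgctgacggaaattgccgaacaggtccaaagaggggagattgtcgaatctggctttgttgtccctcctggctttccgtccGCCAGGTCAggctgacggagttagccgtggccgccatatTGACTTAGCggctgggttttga
Atp5me: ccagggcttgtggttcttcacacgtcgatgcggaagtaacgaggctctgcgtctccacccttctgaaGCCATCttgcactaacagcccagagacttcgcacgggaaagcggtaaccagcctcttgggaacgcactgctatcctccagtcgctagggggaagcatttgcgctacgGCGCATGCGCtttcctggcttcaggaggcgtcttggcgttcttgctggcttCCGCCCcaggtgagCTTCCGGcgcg

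In the Atp5if1 window the capitals are a CCAAT box and an SP1 box, both on the opposite strand, which begin 46 and 32 bases before the start. The Ndufb7 window holds an ETS site 16 bases before the start and an SP1 box on the opposite strand 109 bases before it. In the window of Ndufs1 an ETS site lies 199 bases before the start on the opposite strand, with antioxidant response elements at 22 bases on the gene's strand and 61 bases on the opposite one. The Atp5me window has the NRF1 core on both strands at 74 and 76 bases, overlapping in 1 palindromic run, with an ETS site 11, an SP1 box 25 and a YY1 core 183 bases before the start, all on the opposite strand. A window was found for 71 of the 79 members. The ETS site occurred in 19 of these 71 windows (26.8%) against 7.27% of all 33469 RefSeq windows of that length, and the NRF1 core in 7 (9.86%) against 2.20%. The NRF1 windows were those of Atp5me, Atp5mg, Atp5po, Ndufa11, Ndufa6, Sdhb and Uqcrc1. For the SP1 box the shares were 36.6% of members and 30.5% of all windows, and for the YY1 core 14.1% and 10.6%. The CCAAT box was in 33.8% of the members' windows and 34.0% of all, and the antioxidant response element in 11.3% and 10.1%. The members were counted with 1 window per gene, whereas the background took every RefSeq window, whether its gene was measured or not. The sets are therefore not alike, and the difference in shares was not tested. A match is a run of letters and not a measured binding site.

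Most members were among the brightest signals of the array. Values are log2 signals after robust multi-array averaging, and each gene is represented by its probe set (the group of probes designed for 1 transcript) with the highest mean. On every array, 72 of the 79 members lay above the array's median and 66 above its 95th percentile. The other 7 were isoforms known mainly from heart, skeletal muscle, testis, lung or low-oxygen states. Of these, Cox4i2, Cox6b2, Cox7b2 and Cox8b lay below the 25th percentile on every array, and Cox6a2, Cox7a1 and Ndufa4l2 below the median. The highest member signal of an array ran from 13.6 to 13.89, under the arrays' highest signals of 15.3 to 15.36. Signals of different probe sets do not compare transcript amounts between genes, so no order of the members by level is given. The members varied little between arrays of a group: their median residual SD was 0.090 on the log2 scale, from 0.046 to 0.226, against 0.138 over all genes.

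The differences from the vehicle were small at every dose, and 2 members, Atp5if1 and Ndufb7, passed the test at 1 or more doses. At 61.2 mg/kg 0 of 79 members passed limma's test at an adjusted p of 0.05 over all genes, and 0 had an unadjusted p under 0.05. Of all genes 0.0141% passed as higher and 0% as lower. At 122.5 mg/kg limma again called 0 members, with 2 at an unadjusted p under 0.05, against 0.113% of all genes higher and 0% lower. At 244.6 mg/kg 1 member was higher and 0 lower, where 2.52% of all genes were higher and 0.429% lower, and 8 members had an unadjusted p under 0.05. At 489.2 mg/kg limma called 0 members, 1 having an unadjusted p under 0.05, against 1.51% of all genes higher and 1.39% lower. At 978.5 mg/kg 1 member was higher and 1 lower, where 6.18% of all genes were higher and 4.07% lower, and 13 members had an unadjusted p under 0.05. From the lowest to the highest dose 5.48%, 6.06%, 14.0%, 14.5% and 24.7% of all genes had such a p. That share was larger than the members' share at each dose. Without vehicle replicate 6 the counts of called members were 2 at 244.6 mg/kg, with Ndufs1 added, and 4 at 978.5 mg/kg, with Ndufs1 and Uqcrc2 added. Of all 14218 genes 411 and 1594 were called in those fits. In liver homogenate, fewer cells of a type and less RNA per cell cannot be told apart.

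The members' median log2 difference lay close to that of all genes. From the lowest to the highest dose it was -0.007, 0.010, 0.036, -0.013 and 0, beside 0.001, -0.003, -0.008, 0.007 and -0.023 for all 14218 genes. The highest dose had 39 members above 0 and 40 below. At 244.6 mg/kg 54 lay above 0 and 25 below, the most one-sided count of the 5 doses. The members' median at 244.6 mg/kg was 0.047 without vehicle replicate 6, from 0.019 to 0.059 over all single arrays left out. It was 0.08 with the replicate number as a block. No treated array carries the numbers 4, 5 or 6. Under the block, differences from the vehicle therefore rest on vehicle replicates 1, 2 and 3. Beside these values, the SD of the members' median between arrays of a group was 0.042. The 5 comparisons share the vehicle arrays, so a vehicle array that is high or low moves all of them.

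**Figure D1:**
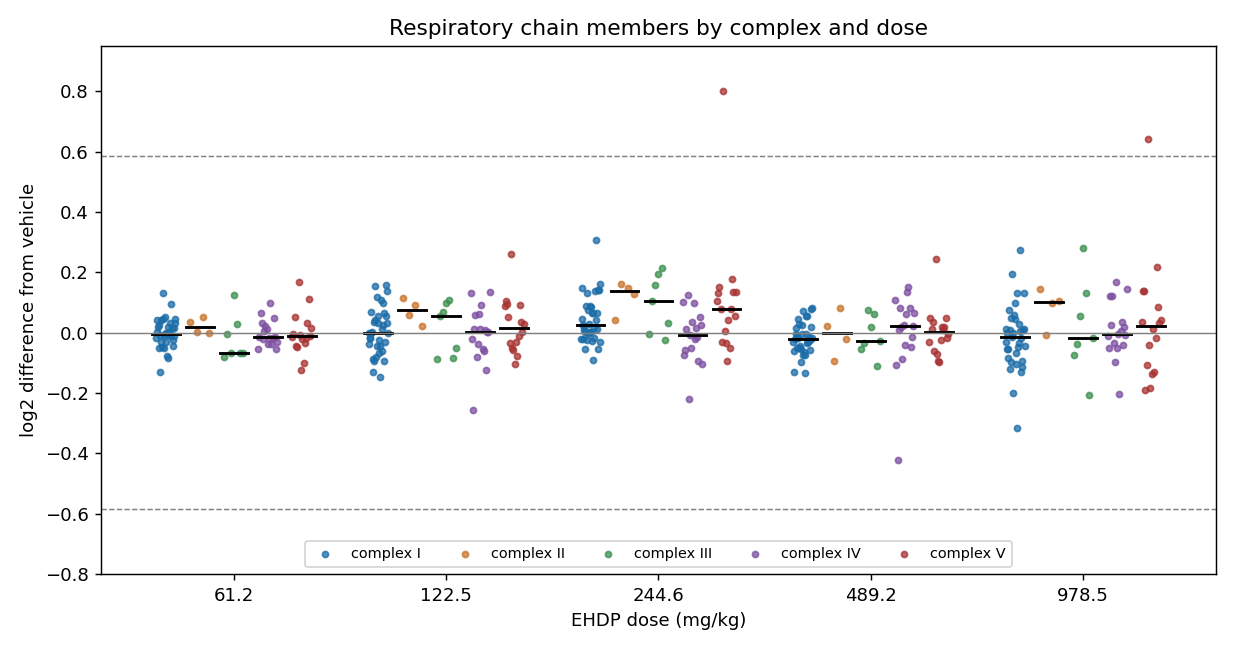
Log2 difference of each of the 79 members from the vehicle (vertical axis) at the 5 EHDP doses (horizontal axis, mg/kg), coloured by complex, with a black bar at each complex's median and dashed lines at 1.5-fold. Atp5if1 of complex V lies above the upper dashed line at 244.6 and 978.5 mg/kg, and the other members lie within both lines at every dose.

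Atp5if1, the inhibitor protein that stops the ATP synthase from running backwards and burning ATP, rose at 244.6 and 978.5 mg/kg. Its vehicle arrays stood at 9.53, 9.53, 9.49, 9.67, 9.67 and 9.91, a mean of 9.63 ± 0.15 (SD, n = 6). At 61.2 mg/kg the arrays read 9.92, 9.84 and 9.65, and at 122.5 mg/kg 9.76, 9.82 and 10.10. The arrays at 244.6 mg/kg read 10.55, 10.38 and 10.37, those at 489.2 mg/kg 9.95, 9.97 and 9.71, and those at 978.5 mg/kg 10.62, 9.94 and 10.26. All arrays at 244.6 and 978.5 mg/kg lay above all vehicle arrays, while those at the other doses overlapped them, and replicate 2 at 978.5 mg/kg lay just above the highest vehicle array. The log2 difference was 0.80 ± 0.12 at 244.6 mg/kg (SE, n = 3 against 6, 1.74-fold, limma adjusted p = 0.00101) and 0.64 ± 0.12 at 978.5 mg/kg (1.56-fold, limma adjusted p = 0.00237). At 61.2, 122.5 and 489.2 mg/kg it was 0.17, 0.26 and 0.24, and there the gene did not pass. On dose rank, from 0 for the vehicle to 5, the slope was 0.12 ± 0.029 per step (limma adjusted p = 0.00787). It did not pass with dose in mg/kg (limma adjusted p = 0.0524) or with the plain probe set described next (0.047 per step, limma adjusted p = 0.27).

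The level of Atp5if1 did not climb step by step with dose. At 489.2 mg/kg its mean of 9.88 lay below the means of 10.43 at 244.6 and 10.27 at 978.5 mg/kg. The contrast of 244.6 with 489.2 mg/kg, added after these values were seen, gave 0.56 ± 0.14 (limma adjusted p = 0.0537), and 978.5 against 489.2 mg/kg gave 0.40 ± 0.14 (limma adjusted p = 0.235), so neither difference between doses passed. In the added contrast limma called 0 members in either direction, where 1.5% of all genes were higher and 0.204% lower at 244.6 mg/kg. An unadjusted p under 0.05 was found for 5 members, against 11.6% of all genes. For 978.5 against 489.2 mg/kg limma also called 0 members, where 0.106% of all genes were higher and 0% lower. There 7 members had an unadjusted p under 0.05, against 13.6% of all genes. Both contrasts share the arrays at 489.2 mg/kg.

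The size of the rise depended on the probe set. Atp5if1 has 3 of them, and the one used carries the ending for probes shared by alternative transcripts of 1 gene. The plain probe set, with a vehicle mean of 6.37, differed by 0.26 at 244.6 mg/kg and 0.46 at 978.5 mg/kg, and the one with the ending for probes that may match other transcripts, with a vehicle mean of 7.32, by 0.27 and 0.26. With every probe set tested at 978.5 mg/kg, the latter did not pass (limma adjusted p = 0.307). The plain one (0.0201) and the one used (0.00281) did. With the plain probe set in place of the one used, the call at 244.6 mg/kg was lost (limma adjusted p = 0.34) and the one at 978.5 mg/kg was kept (limma adjusted p = 0.0175). Of 3 control ratios of RNA integrity, 1 lay wholly below the vehicle in both groups where Atp5if1 passed. The 3′ minus 5′ log2 signal of the GAPDH control probe sets, which is larger where RNA is broken, ran from 1.05 to 2.06 in the vehicle, from 1.047 to 1.477 at 61.2 mg/kg and from 0.855 to 1.29 at 122.5 mg/kg. It ran from 0.885 to 1.02 at 244.6 mg/kg, from 1.165 to 1.304 at 489.2 mg/kg and from 0.90 to 1.02 at 978.5 mg/kg. The same ratio of beta-actin (2.112 to 2.428 at 244.6 and 2.051 to 2.193 at 978.5 mg/kg) overlapped the vehicle range of 2.165 to 2.732. That of hexokinase (1.779 to 1.836 and 1.647 to 1.836) overlapped its vehicle range of 1.588 to 1.865. Vehicle replicate 6 had the highest GAPDH and beta-actin ratios and the highest vehicle signal of Atp5if1. Its hexokinase ratio of 1.834 lay below the 1.865 of vehicle replicate 4. The part of RNA integrity in the result was not tested.

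**Figure D2:**
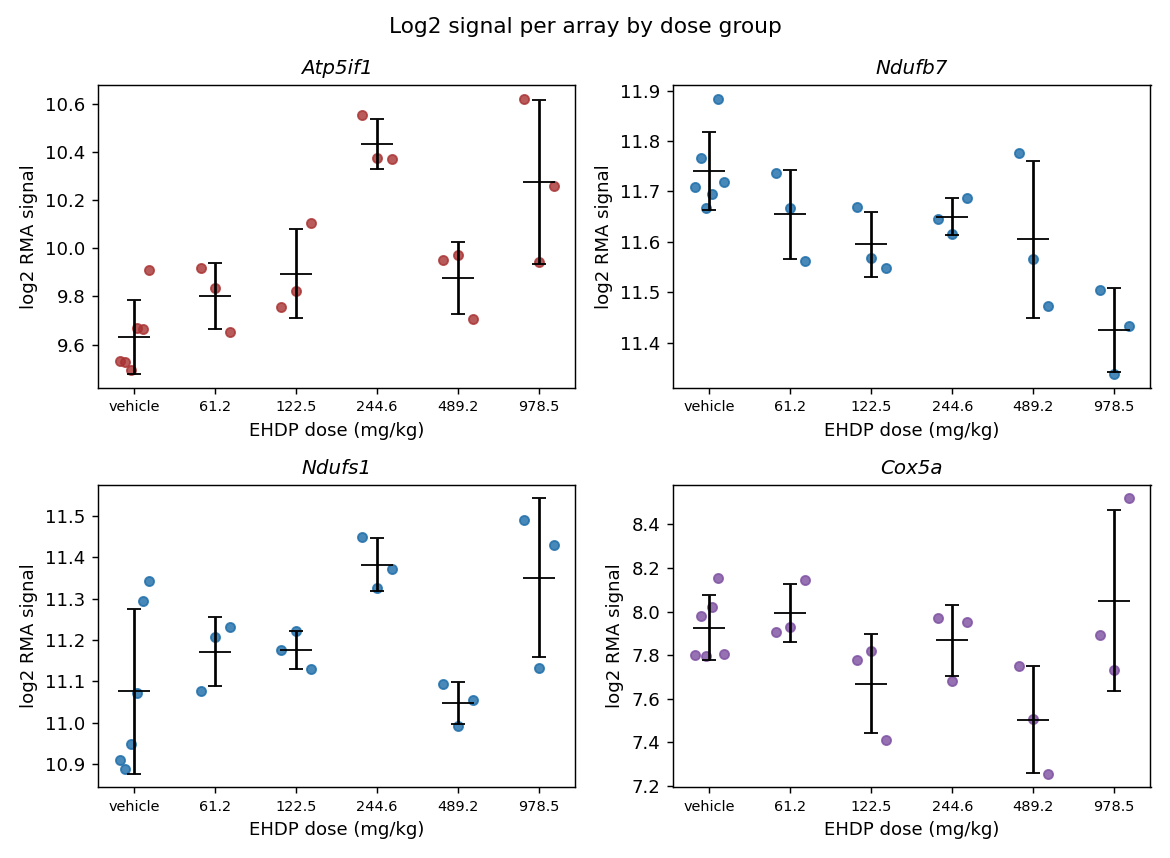
Log2 signal per array (points) of Atp5if1, Ndufb7, Ndufs1 and Cox5a in the vehicle and at 5 EHDP doses (mg/kg), with the mean and SD of each group in black; each panel has its own vertical range, which does not start at 0. The points of Atp5if1 at 244.6 and 978.5 mg/kg lie above all vehicle points, those of Ndufb7 at 978.5 mg/kg and of Cox5a at 489.2 mg/kg lie below them, and those of Ndufs1 overlap at 978.5 mg/kg.

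Ndufb7, an accessory subunit of the membrane arm of complex I, fell at 978.5 mg/kg. Its vehicle arrays stood at 11.71, 11.77, 11.67, 11.70, 11.88 and 11.72. The arrays read 11.74, 11.67 and 11.56 at 61.2 mg/kg, 11.67, 11.57 and 11.55 at 122.5 mg/kg, and 11.65, 11.62 and 11.69 at 244.6 mg/kg. At 489.2 mg/kg they read 11.78, 11.57 and 11.47, and at 978.5 mg/kg 11.50, 11.34 and 11.43. Only the 978.5 mg/kg group lay wholly below the vehicle, and at 489.2 mg/kg the arrays spread over both sides of the lowest vehicle array. The difference was -0.32 ± 0.072 at 978.5 mg/kg (SE, n = 3 against 6, a fall of 1.24-fold, limma adjusted p = 0.00776), and the slope on dose rank was -0.049 ± 0.012 per step (limma adjusted p = 0.0116). Over the trend, Atp5if1 and Ndufb7 were the 1 member called higher and the 1 called lower, where 6.06% of all genes rose and 5.12% fell with dose rank. Among the treated arrays alone neither slope passed (limma adjusted p = 0.36 for Atp5if1 and 0.286 for Ndufb7).

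With the probe sets used, the other 34 members of complex I did not pass at any dose. The median log2 difference of the complex was -0.005, 0, 0.025, -0.022 and -0.013 from the lowest to the highest dose. Ndufs1, the largest subunit and a carrier of iron-sulfur clusters in the peripheral arm, had vehicle arrays at 10.91, 10.89, 10.95, 11.07, 11.30 and 11.34. It read 11.08, 11.21 and 11.23 at 61.2 mg/kg and 11.18, 11.22 and 11.13 at 122.5 mg/kg, then 11.45, 11.32 and 11.37 at 244.6 mg/kg, 11.09, 10.99 and 11.06 at 489.2 mg/kg, and 11.49, 11.13 and 11.43 at 978.5 mg/kg. At 244.6 and at 978.5 mg/kg 2 of 3 arrays lay above every vehicle array, and all other treated arrays fell within the vehicle range. The differences were 0.31 ± 0.099 at 244.6 mg/kg (limma adjusted p = 0.12) and 0.27 ± 0.099 at 978.5 mg/kg (limma adjusted p = 0.0856), and neither passed. The difference at 978.5 mg/kg passed without vehicle replicate 5 (0.32, limma adjusted p = 0.0456), without vehicle replicate 6 (0.33, limma adjusted p = 0.0278) and without replicate 2 of that dose (0.38, limma adjusted p = 0.0302). It also passed with array weights (0.315, limma adjusted p = 0.0399). With the replicate number as a block, which sets vehicle replicates 4, 5 and 6 aside, it passed as well (0.435, limma adjusted p = 0.00658). Ndufs8, another iron-sulfur subunit, lay above all vehicle arrays at 122.5 and 244.6 mg/kg. The lowest array at 244.6 mg/kg read 11.1341 and the highest vehicle array 11.1315. Its mean differed from the vehicle mean by 0.16 and 0.14 at these doses without passing (limma adjusted p = 0.738 and 0.34). At 978.5 mg/kg Ndufs8 read 11.16, 10.97 and 11.01, the first above the vehicle range of 10.93 to 11.13 and the others within it.

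Among the rest of the catalytic arm of complex I, which takes electrons from NADH through a flavin and iron-sulfur clusters, differences at 978.5 mg/kg were 0.13 for Ndufv1, 0.012 for Ndufv2, -0.13 for Ndufs3 and -0.095 for Ndufs7. None of them passed. Ndufb10, an accessory subunit of the membrane arm like Ndufb7, differed by -0.20 ± 0.093 at 978.5 mg/kg (limma adjusted p = 0.188), with arrays at 11.55, 11.08 and 11.44 that overlapped the vehicle range of 11.42 to 11.74. Ndufv3 has a second probe set of lower signal that read 0.44 higher at 978.5 mg/kg and passed with every probe set tested (limma adjusted p = 0.0165), where the one used read -0.044. Ndufa4, which the symbol rule counts here but which is now known as a component of complex IV, differed by 0.075, and its low-signal paralog Ndufa4l2 by -0.12.

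The 4 subunits of complex II, succinate dehydrogenase, were measured, and 0 of them passed at any dose. Sdha, the flavin subunit that oxidises succinate, read 11.30, 11.43, 11.38, 11.55, 11.53 and 11.81 in the vehicle and 11.65, 11.68 and 11.60 at 978.5 mg/kg, a difference of 0.145 ± 0.090 (limma adjusted p = 0.339). Its treated arrays lay above 5 of the 6 vehicle arrays and below vehicle replicate 6. The iron-sulfur subunit Sdhb and the membrane anchor Sdhc were 0.16 ± 0.070 and 0.15 ± 0.061 above the vehicle at 244.6 mg/kg (limma adjusted p = 0.293 and 0.265), with overlapping arrays. Sdhb stood at -0.007 and Sdhc at 0.098 at 978.5 mg/kg. The other anchor, Sdhd, has 2 probe sets, which read 0.10 and 0.11 at that dose.

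Complex III, which moves electrons from coenzyme Q to cytochrome c, had members on both sides of 0 and 0 that passed. Uqcrfs1, the Rieske iron-sulfur protein, read 12.27, 12.12, 12.32, 12.29, 12.43 and 12.43 in the vehicle and 12.54, 12.48 and 12.55 at 244.6 mg/kg. Those treated arrays lay above all vehicle arrays, with a difference between the means of 0.22 ± 0.067 (limma adjusted p = 0.10). At 978.5 mg/kg the difference was 0.13. Uqcrc2, a core protein of the matrix side, ran from 11.19 to 11.94 in the vehicle, with a median of 11.57, and read 11.83, 11.72 and 12.04 at 978.5 mg/kg. The difference of 0.28 ± 0.12 did not pass (limma adjusted p = 0.157) and did so without vehicle replicate 6 (0.35, limma adjusted p = 0.0433). Uqcrc2 also passed with the replicate number as a block (0.447, limma adjusted p = 0.0155), which sets vehicle replicates 4, 5 and 6 aside. Its second probe set read 0.68 higher (limma adjusted p = 0.0876 with every probe set tested). Uqcrh, the hinge protein at the cytochrome c side, read 12.02, 11.89 and 12.05 at 978.5 mg/kg against 12.03 to 12.32 in the vehicle, a difference of -0.21 ± 0.069 (limma adjusted p = 0.0618). It passed under a second quantile normalization (-0.25, limma adjusted p = 0.0105) and without vehicle replicate 1 (-0.24, limma adjusted p = 0.0307). With only genes above the median level it passed as well (-0.207, limma adjusted p = 0.0414).

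Complex IV, cytochrome c oxidase, had 0 of 17 members called at any dose. The widest difference was that of Cox5a, a subunit known to bind thyroid diiodothyronine, whose vehicle arrays read 7.80, 7.98, 7.80, 8.02, 8.16 and 7.81. At 489.2 mg/kg its arrays read 7.75, 7.51 and 7.26, all below the vehicle, and at 978.5 mg/kg 7.89, 7.73 and 8.52. The difference was -0.42 ± 0.15 at 489.2 mg/kg (limma adjusted p = 0.15) and 0.12 at 978.5 mg/kg, where replicate 3 stood apart from the others and above the vehicle. Without that array the latter difference was -0.11 and had the opposite sign. Between 978.5 and 489.2 mg/kg it was 0.54 ± 0.17 (limma adjusted p = 0.185). Cox5a also had the highest residual SD of the members, 0.226. Cox4i1, the common isoform of the subunit that senses ATP, read from 12.93 to 13.13 in the vehicle and 13.08, 13.11 and 12.90 at 978.5 mg/kg.

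The tissue-restricted isoforms of complex IV stayed at low signal at every dose. Cox4i2, the isoform of lung and low oxygen, had a vehicle mean of 4.84 and differed by between -0.11 and -0.014 over the 5 doses. Cox7a1, the heart and muscle isoform, read 5.40, 5.05 and 5.01 at 978.5 mg/kg against 5.18 to 5.46 in the vehicle, a difference of -0.20 ± 0.092 (limma adjusted p = 0.175). It passed only without replicate 1 of that dose (-0.32, limma adjusted p = 0.0436), among the alternatives run. Cox6b2, the testis isoform, ran from 4.09 to 4.75 in the vehicle and differed by 0.17 at 978.5 mg/kg. Their common partners Cox6a1, Cox6b1, Cox7b and Cox8a differed by 0.12, -0.10, 0.037 and -0.008 at that dose, and 0 of them passed. Cox7a2l, a factor of respiratory supercomplexes, differed by 0.005. Cox6c-ps1, named as a pseudogene of Cox6c, differed by -0.005, and such a copy may share probe matches with its parent gene.

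In complex V, Atp5if1 stood apart from the subunits of the enzyme itself. The alpha and beta subunits of the F1 head differed at 978.5 mg/kg by 0.035 for Atp5f1a and 0.14 ± 0.060 for Atp5f1b (limma adjusted p = 0.158). Atp5f1b read from 13.61 to 13.76 in the vehicle and 13.89, 13.80 and 13.77 at 978.5 mg/kg, all above the vehicle though by 0.01 for the lowest of them. Atp5f1d, the delta subunit of the rotating stalk, read 12.30, 12.23 and 12.06 against 12.32 to 12.45, all below the vehicle, with a difference of -0.19 ± 0.073 (limma adjusted p = 0.11). Atp5me, a small membrane subunit of the dimer interface, read 11.70, 11.73 and 11.59 against 11.80 to 11.96, also wholly below, with -0.18 ± 0.068 (limma adjusted p = 0.0919). The stator subunit Atp5pb stood at 13.40, 13.33 and 13.47 against 12.93 to 13.39, with 0.22 ± 0.090 (limma adjusted p = 0.138). The gamma subunit Atp5f1c differed by 0.14 and the membrane subunit Atp5mf by -0.14, each with an unadjusted p under 0.05 and without passing. Atp5f1d and Atp5me passed under the second quantile normalization, and Atp5pb did not pass there.

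A list named catalytic core was set beside the remaining members and described by counts alone. Besides subunits that bind substrate or carry electrons it holds Ndufs3, the core proteins Uqcrc1 and Uqcrc2 and the regulatory Cox4i1. It lacks Cyc1, which the symbol rule does not take, and every subunit that is not encoded in the nucleus. It comprised 16 measured members: Ndufs1, Ndufs3, Ndufs7, Ndufs8, Ndufv1, Ndufv2, the 4 Sdh genes, Uqcrc1, Uqcrc2, Uqcrfs1, Cox4i1, Atp5f1a and Atp5f1b. Limma called 0 of them at any dose. At 61.2 mg/kg 8 of 16 lay above 0, with a median of 0 and 0 at an unadjusted p under 0.05. Of all genes 50.4% lay above 0 there and 5.48% had an unadjusted p under 0.05. At 122.5 mg/kg 16 of 16 lay above 0, with a median of 0.094 and 1 at an unadjusted p under 0.05, and at 244.6 mg/kg 15 of 16, with a median of 0.14 and 6 at an unadjusted p under 0.05. Of all genes 49.0% lay above 0 and 6.06% had an unadjusted p under 0.05 at 122.5 mg/kg, and 47.1% and 14.0% at 244.6 mg/kg. The core median was 0.021 at 489.2 mg/kg, with 10 of 16 above 0 against 52.3% of all genes, and 0.077 at 978.5 mg/kg, with 12 of 16 against 44.7%. At an unadjusted p under 0.05 were 0 of 16 at 489.2 mg/kg, against 14.5% of all genes. At 978.5 mg/kg they were 3 of 16, against 24.7%. The core median at 489.2 mg/kg was 0.069 without vehicle replicate 6 and 0.005 under the second quantile normalization. Taken per array, the median of the core relative to the vehicle ran from -0.105 to 0.112 over the vehicle arrays, from 0.108 to 0.196 at 244.6 mg/kg and from 0.038 to 0.13 at 978.5 mg/kg, so the groups overlapped. The 56 members outside the core and outside the tissue-restricted isoforms had medians of -0.009, -0.001, 0.024, -0.016 and -0.011 from the lowest to the highest dose. Core medians above 0 from 122.5 mg/kg upward kept their sign under median centring and under the second quantile normalization, which gave 0.091 and 0.052 at 978.5 mg/kg. For the median of all members at 978.5 mg/kg those gave 0.014 and -0.026, so it has no settled sign.

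Intervals of the differences put a bound on how far most members could have moved. At 978.5 mg/kg the 95% limma interval of 54 of 79 members (68.4%) lay wholly within 1.2-fold of the vehicle in either direction, against 29.0% of all genes, and that of 78 within 1.5-fold, against 84.9% of all genes. The member outside 1.5-fold was Atp5if1, with an interval from 0.38 to 0.90. From the lowest dose to 489.2 mg/kg, the counts within 1.2-fold were 69, 59, 54 and 65 members. Of all genes 41.2%, 42.8%, 36.9% and 36.4% lay within it at these doses. For Ndufb7 at 978.5 mg/kg the interval ran from -0.47 to -0.17. The members' low residual SD narrows their intervals, so these shares describe precision as well as size.

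**Figure D3:**
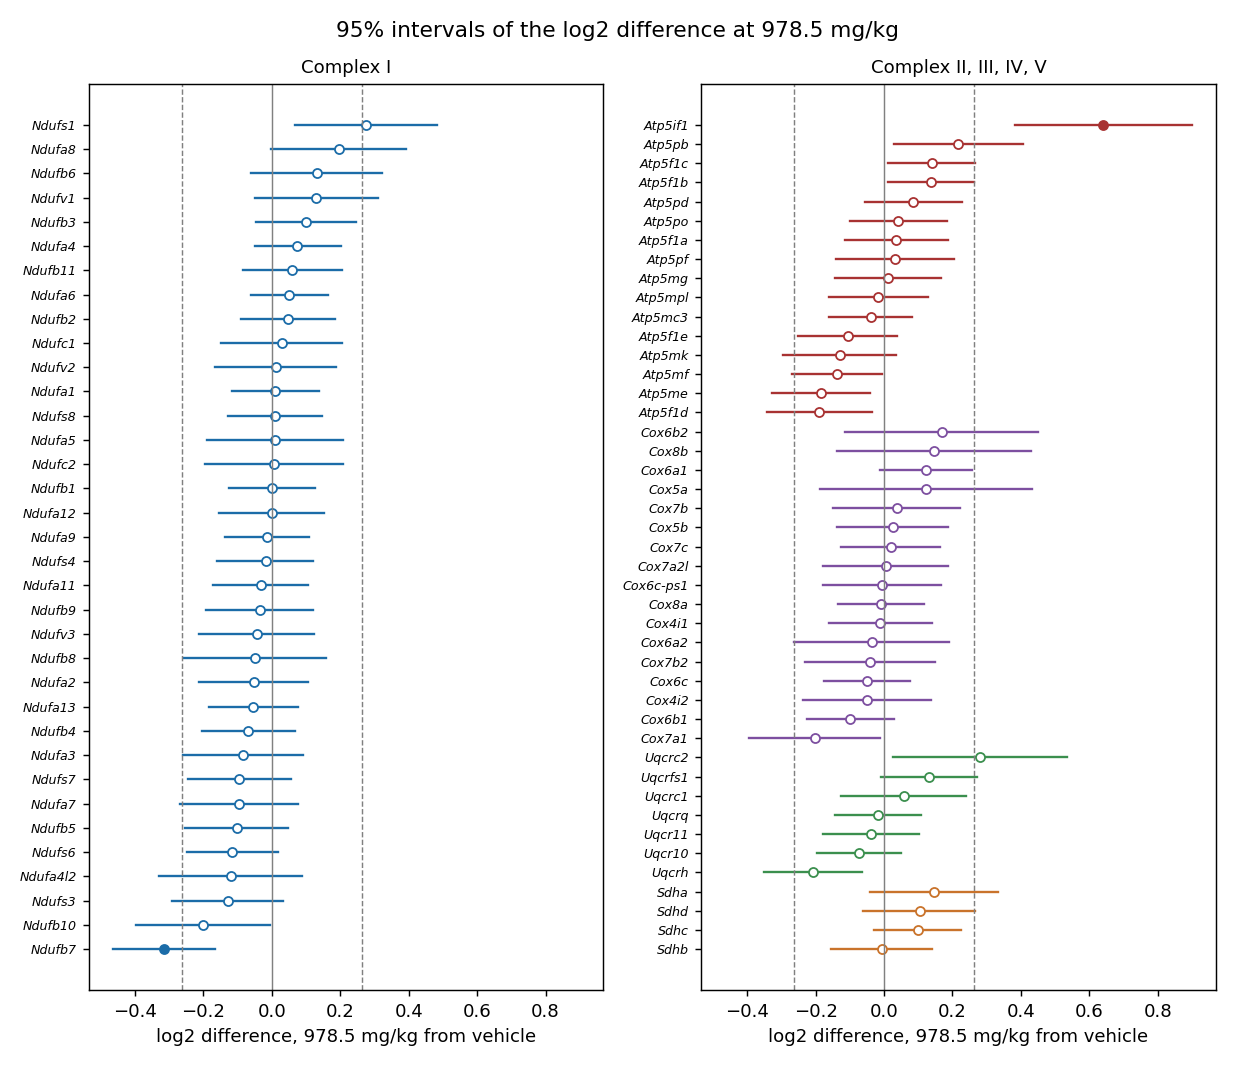
Log2 difference from the vehicle at 978.5 mg/kg (horizontal axis) with its 95% limma interval for each of the 79 members, complex I on the left and complexes II to V on the right, coloured by complex; filled points passed the test and dashed lines mark 1.2-fold. Atp5if1 and Ndufb7 are the filled points, and the intervals of 54 members lie between the dashed lines.

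Genes that build and supply the chain were counted beside its subunits. At 978.5 mg/kg 6 of 33 assembly factors of complexes II to V rose and 0 fell, with a median of 0.097, and 2 of 13 assembly factors of complex I rose, with a median of 0.18. These were Acad9 (0.59 ± 0.088, limma adjusted p = 0.000251), a partner of complex I assembly that resembles acyl-CoA dehydrogenases, and Ndufaf1 (0.34 ± 0.088, limma adjusted p = 0.0166). Cox15, which makes the haem A of complex IV, rose by 0.51 ± 0.096 (limma adjusted p = 0.0019), and Sdhaf3, an assembly factor of complex II, by 0.49 ± 0.095 (limma adjusted p = 0.00255). Acad9 was also higher at 244.6 and 489.2 mg/kg (0.50 and 0.34, limma adjusted p = 0.00251 and 0.0393). Of 5 structural components outside the symbol rule, Cyc1, Higd1a, Higd2a, Ndufab1 and Stmp1, 1 passed, Higd2a, a supercomplex assembly factor (0.26 ± 0.074, limma adjusted p = 0.0328).

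Of 19 genes listed as regulators of mitochondrial transcription and biogenesis, 3 rose at 978.5 mg/kg and 0 fell. Tfam, which packages and transcribes mitochondrial DNA, rose by 0.36 ± 0.078 (limma adjusted p = 0.00555) and Mterf3 by 0.44 ± 0.13 (limma adjusted p = 0.0314). Nfe2l1 of the same list rose by 0.58 ± 0.13 (limma adjusted p = 0.00886) and is a different gene from the NRF1 named above. Of 73 mitochondrial ribosomal proteins 6 rose and 1 fell, led by Mrpl49 (0.62 ± 0.075, limma adjusted p = 2.66e-05), with Mrpl48 the one that fell (-0.45 ± 0.077, limma adjusted p = 0.000945). Of 16 tricarboxylic acid cycle genes 3 rose and 1, pyruvate carboxylase (Pc, -0.46 ± 0.13, limma adjusted p = 0.0291), fell. Carriers, uncouplers and peroxide defence had 3 of 19 higher, Sod2, Prdx3 and Vdac1, and 1 lower, Ucp2. Among 11 genes that feed electrons in by other routes, Etfa rose (0.35 ± 0.072, limma adjusted p = 0.00362) and Prodh, proline dehydrogenase, fell (-0.54 ± 0.12, limma adjusted p = 0.00802). Of 12 coenzyme Q synthesis genes limma called 0, with 3 at an unadjusted p under 0.05. Against these shares, 6.18% of all genes were higher and 4.07% lower at this dose, and 24.7% had an unadjusted p under 0.05. The difference between these lists and the subunits was not tested.

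**Figure D4:**
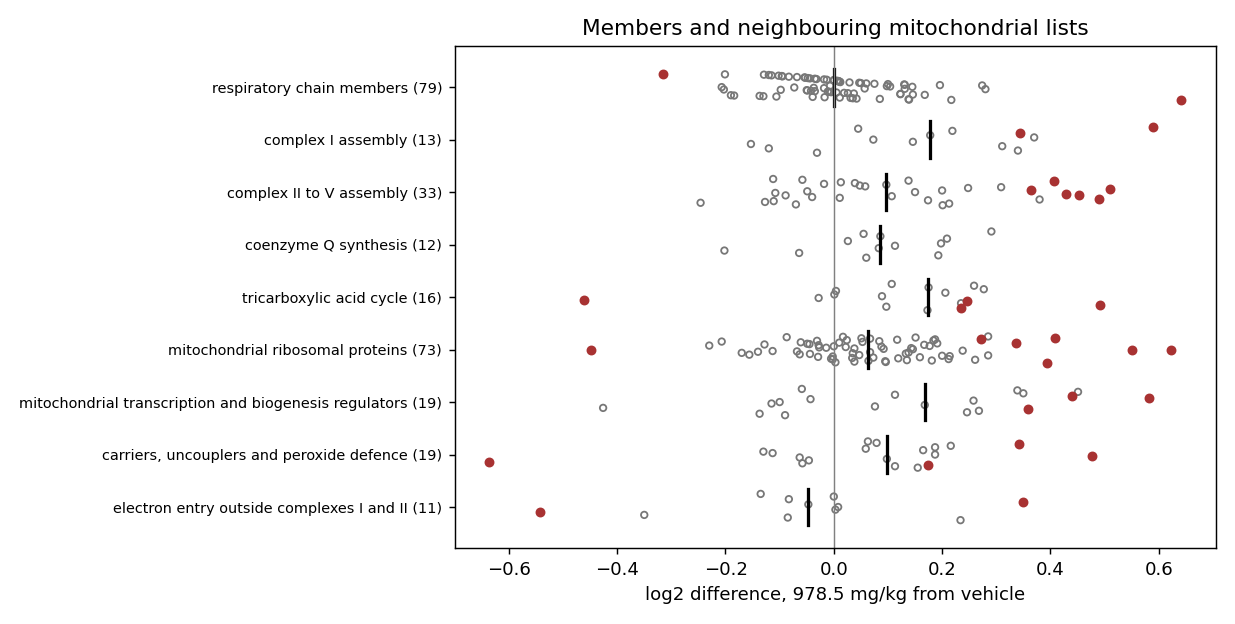
Log2 difference from the vehicle at 978.5 mg/kg (horizontal axis) for the 79 respiratory chain members and 8 neighbouring gene lists (rows, with the number of measured genes), with red points for genes that passed the test and a bar at each median. The medians are 0 for the respiratory chain members, 0.18 for complex I assembly and -0.047 for electron entry outside complexes I and II.

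Array medians of all probe sets ran from 6.33 to 6.41, and the mean correlation between 1 array and all others from 0.988, for vehicle replicate 6, to 0.994. The tissue label was checked with hepatocyte markers, of which Alb, Ttr and Serpina1 had vehicle means of 15.34, 14.86 and 14.81 and 0 of 8 passed at 978.5 mg/kg (1 at an unadjusted p under 0.05 in limma). Over the slope on dose rank 1 of 8 fell, with 4 at an unadjusted p under 0.05 in limma. Markers of several other cell types differed too. At 978.5 mg/kg 6 of 6 macrophage markers lay below the vehicle and 1 passed, Cd163, with list means from -0.90 to -0.53 against -0.38 to 0.29 in the vehicle. Of 4 red blood cell markers 3 fell, with list means from -1.51 to -0.74 against -0.69 to 0.37, and 1 of 8 stellate and fibroblast markers fell. Of 7 lymphocyte markers 0 passed, with 4 at an unadjusted p under 0.05 in limma, and 7 lay below the vehicle. Of 6 endothelial markers 0 passed and 0 had an unadjusted p under 0.05 in limma, and of 4 bile duct markers 1 passed as higher. Of 6 skeletal muscle markers 0 passed, with 1 at an unadjusted p under 0.05 in limma. Among them Acta1, Ckm, Mb, Myh4 and Tnnt3 had vehicle means from 3.57 to 5.09, whereas the probe set named Myh1 stood at 12.09. Late-day clock genes were also higher at this dose in 5 of 7 and late-night ones lower in 3 of 4. Over the slope, 3 of 6 macrophage, 2 of 7 lymphocyte, 2 of 8 stellate and fibroblast and 3 of 4 red blood cell markers fell and 1 of 4 bile duct markers rose. Of the endothelial and skeletal muscle markers limma called 0 in the slope, with 1 of each list at an unadjusted p under 0.05. Of all genes 24.7% had such a p at 978.5 mg/kg and 24.5% over the slope. Limma called 6.18% of all genes higher and 4.07% lower at 978.5 mg/kg, and 6.06% and 5.12% over the slope. The part of these shifts in the members' values was not tested.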

How the data were processed

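Log2 signals of 31099 probe sets on 21 arrays were used as the authors deposited them, made by robust multi-array averaging (RMA) per the submitters' processing notes, whose version was not given in the sources used here. Per the labels' protocols, 100 ng of RNA went into each labelling. Probe sets with exactly 1 gene (20832) gave 14218 genes, 4526 of them with 2 or more probe sets, each represented by the one of highest mean; 436 probe sets with several genes and 9831 with none in the probe table were left unnamed. More than 1 probe set was available for 8 members. The values were not scaled further. The number of arrays limits the precision.

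The test was limma 3.58.1 (R 4.3.3) with 1 mean per group over all arrays (15 residual degrees of freedom; 19 for the slope on dose rank), two-sided, with Benjamini-Hochberg adjustment over all 14218 genes at 0.05. Tables and plots were made with Python 3.11.15, pandas 2.3.3 and matplotlib 3.10.9. The pipeline was checked on simulated data. Members, lists and alternatives were chosen with earlier results of these data known. Values are given for members called, the highest and lowest of each complex at 978.5 mg/kg, the catalytic core, restricted isoforms and their partners, and at most 4 called genes of a neighbouring list; Ndufb10, Ndufv3, Cox5a, Cox6c-ps1, Atp5f1c, Atp5me, Atp5mf and Atp5pb were added after their values were seen. Alternatives covered the probe set, the level filter, limma's options, array weights, centring, quantile normalization, the replicate number as a block, and each array left out.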

Additional observations from a re-analysis of the deposited data

Results flagged for a closer look

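Among the 41 members described and 8 medians of complexes and groups, 1 of 49 vehicle groups held an array that stood apart by Dixon's test. Cox8a, the common isoform of the smallest subunit of complex IV, read 13.31 in vehicle replicate 5, where the nearest vehicle array read 13.19 and the lowest 13.13. The gap was 0.654 of the group's range, above the critical value of 0.625 for 6 arrays, a value that chance passes in about 5% of groups. Cox8a did not pass limma's test at any dose.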

How the results depend on the processing

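Leaving out each array in turn gave 1 to 2 called members at 244.6 mg/kg, 2 to 4 at 978.5 mg/kg and 2 to 3 in the trend, and 0 in each fit at 61.2, 122.5 and 489.2 mg/kg and for 978.5 against 489.2 mg/kg. A second quantile normalization gave 5 members at 978.5 mg/kg (Atp5if1 higher, and Atp5f1d, Atp5me, Ndufb7 and Uqcrh lower) and 5 in the trend. At 978.5 mg/kg 1502 of all 14218 genes were called under it. Array weights gave 1 member at 122.5 mg/kg (Sdha), 3 at 244.6 mg/kg (Atp5if1, Ndufs1 and Uqcrfs1) and 4 in the trend. With the plain probe set preferred, 0 members passed at 244.6 mg/kg. With dose in mg/kg the trend called 1 member, Ndufb7, and among treated arrays alone 0. The cause of these moves was not tested. Same-numbered arrays of different groups did not deviate together (mean r = 0.036 over 45 pairs, from -0.23 to 0.369, against -0.012 for 135 other pairs), so the numbers were not taken to pair rats. Vehicle replicates 4, 5 and 6 have no treated array of the same number, so the replicate block sets them aside. The replicate block gave 3 members at 244.6 mg/kg, 6 at 978.5 mg/kg (Atp5if1, Atp5pb, Ndufs1, Sdha and Uqcrc2 higher, Ndufb7 lower) and medians of 0.08 at 244.6 and 0.032 at 489.2 mg/kg. Among these alternatives, calls over all genes were counted only without vehicle replicate 6, under median centring and under the second quantile normalization, each against the vehicle. The other member counts, those of the trend under any alternative included, have no share beside them and cannot be read alone. Atp5if1 passed in 17 of 18 alternatives at 244.6 mg/kg (0.26 to 0.92) and in 18 of 18 at 978.5 mg/kg (0.45 to 0.81), Ndufb7 in 18 of 18 at 978.5 mg/kg (-0.36 to -0.27), and in the trend they passed in 28 and 30 of 31. No alternative used alone the Atp5if1 probe set that may match other transcripts, which did not pass at 978.5 mg/kg. For the members described one by one, 788 alternative values kept their side of the threshold and their direction, or changed sign below the threshold by less than the member's residual SD. Another 15 newly passed, 5 no longer passed and 2 (Ndufv3 and Cox5a) changed sign by more than that SD without passing. Ndufv3 at 978.5 mg/kg reversed with the plain probe set preferred (0.435, limma adjusted p = 0.0142). Signals not far above background, as in the 4 isoforms under the 25th percentile, limit what a difference can show.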
